A study of Arabidopsis thaliana with 30 samples.

Results

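The genes described here are 40 loci of the Arabidopsis thaliana circadian clock and its outputs, out of 32753 genes in the deposited expression table. They were taken by locus: the dawn repressors LHY and CCA1, the pseudo-response regulators, the evening complex and its relatives, the REVEILLE and LNK families, the FKF1 family with GI, and output genes of the CDF, GRP and COR groups. The values of all transcript models of a locus were added up, and all 40 loci had a value. By the phase of their known daily peak, as assigned for this report, 12 of the 40 are called evening members below and 12 morning members. The other 16 were given neither, among them ELF3, PRR7, RVE4 and AT5G52660.

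The plant clock is a network of repressors and activators that come on in turn through the day. LHY and CCA1 appear around dawn and hold down the evening genes, the pseudo-response regulators follow one another through the day and repress LHY and CCA1, and the evening complex of ELF3, ELF4 and LUX closes the cycle at night. REVEILLE factors such as RVE8, with their LNK partners, activate evening genes, and the clock runs in roots as well as in shoots.

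The roots came from 7-day-old seedlings of the Col-0 ecotype that were incubated for 4 h in 1/2 MS solution at 23°C in light. Transcripts were measured by stranded mRNA sequencing in 30 libraries, 3 in each of 10 groups. In the RGI5 set, plants of the line RiD-RGI5/BAK1 and wild-type plants received 100 nM rapamycin or mock. In the RGI1 set, plants of the line RiD-RGI1/BAK1 and wild-type plants received 1 µM rapamycin or mock. In the RGF1 set, wild-type plants received 100 nM RGF1 peptide or mock. RGF1 is a secreted peptide hormone, RGI1 and RGI5 are receptor kinases for such peptides, BAK1 is a coreceptor, and rapamycin brings the engineered receptor and coreceptor together. The labels give no promoter for the engineered proteins, no number of independent lines, no hour of harvest, no day-night regime and no sequencing batch. They also do not say whether the 3 libraries of a group came from separate cultures, so the p-values below measure the spread between these libraries, which may be technical.

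Each library held 18999 to 19331 genes at 1 TPM or more, where TPM gives a gene's share of all transcripts in a library, scaled by transcript length and to the same total in each. Sequencing depth is not known from such values. RGI1 averaged 204 TPM in mock-treated plants of the RGI1 line and 31.7 TPM in its wild type, and RGI5 averaged 47.0 TPM in the RGI5 line and 2.85 TPM in its wild type, as the labels of the lines require. BAK1 averaged 183 TPM in the RGI1 line, 105 TPM in the RGI5 line, and 53.4 and 54.3 TPM in the wild types of the RGI1 and RGI5 sets. All 8 root markers were detected, with a summed level of 10041 to 12812 TPM. The 14 photosynthesis genes used as green-shoot markers summed to 75.4 to 227 TPM, and RBCS1B and RBCS2B averaged 0.0946 and 0.151 TPM. In whole roots, fewer cells that use a gene and less of its RNA per cell cannot be told apart.

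The stretches below show a known clock motif in the 300 bases upstream of some of the genes on which the results turn, and only genes that carry the motif are shown. They are RefSeq sequence of build TAIR10.1, given 5′ to 3′ on the strand of the gene, with the motif in capitals. In the evening members the capitals mark the evening element AAAATATCT or its reverse complement, the site through which LHY, CCA1 and REVEILLE proteins act on evening genes.
FKF1: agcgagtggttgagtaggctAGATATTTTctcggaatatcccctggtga
TOC1: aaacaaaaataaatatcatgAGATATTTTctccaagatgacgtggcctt
LUX: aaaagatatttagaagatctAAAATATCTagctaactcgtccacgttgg
PRR5: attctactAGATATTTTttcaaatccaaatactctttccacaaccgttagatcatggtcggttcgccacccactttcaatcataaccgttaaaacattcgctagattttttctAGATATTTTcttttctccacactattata
GRP7: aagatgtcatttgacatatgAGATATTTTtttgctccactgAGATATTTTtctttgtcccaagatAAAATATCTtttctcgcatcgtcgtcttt
GRP8: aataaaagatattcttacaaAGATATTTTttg
COR27: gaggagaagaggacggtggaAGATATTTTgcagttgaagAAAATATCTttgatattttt
These lie at chr1:25508433-25508481 on the plus strand for FKF1, chr5:24674792-24674840 on the plus strand for TOC1, chr3:17182969-17183017 on the plus strand for LUX, chr5:8358705-8358846 on the minus strand for PRR5, chr2:9266560-9266653 on the minus strand for GRP7, chr4:18275217-18275248 on the minus strand for GRP8 and chr5:17199911-17199969 on the minus strand for COR27.

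In the morning members the capitals mark the G-box CACGTG, a palindrome bound by many plant transcription factors of the bHLH and bZIP families.
LHY: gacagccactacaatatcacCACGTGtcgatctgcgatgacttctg
CCA1: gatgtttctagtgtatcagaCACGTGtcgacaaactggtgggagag
PRR9: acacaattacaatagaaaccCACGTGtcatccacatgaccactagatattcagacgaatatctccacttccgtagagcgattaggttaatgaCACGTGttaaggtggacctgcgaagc
LNK3: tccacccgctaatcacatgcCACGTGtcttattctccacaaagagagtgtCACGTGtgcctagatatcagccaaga
These lie at chr1:37926-37971 on the minus strand for LHY, chr2:19245378-19245423 on the plus strand for CCA1, chr2:19232343-19232460 on the plus strand for PRR9 and chr3:3923324-3923399 on the plus strand for LNK3.

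Both strands of the 300 bases upstream of 27444 protein-coding genes were searched. The evening element was present upstream of 2.79% of them, and upstream of 8 of the 12 evening members, 1 of the 12 morning members and 0 of the 16 others. Its evening carriers were TOC1, PRR5, LUX, BOA, FKF1, GRP7, GRP8 and COR27, with 3 copies in GRP7 and 2 each in PRR5 and COR27, and its morning carrier was RVE7. The G-box was present upstream of 7.09% of all genes, and upstream of 6 of the 12 morning members, 2 of the 12 evening members and 3 of the 16 others. Its morning carriers were LHY, CCA1, PRR9, RVE1, RVE2 and LNK3, with 2 copies each in PRR9 and LNK3. The CCA1-binding site AAAAATCT was present upstream of 7.94% of all genes and of 7 of the 40 members. No one of the 3 motifs contains another. JMJD5, ELF4, PRR3, LNK2, LNK4 and RVE8, on which the results also turn, carried neither an evening element nor a G-box there. A match says only that the letters are there.

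**Figure D1:**
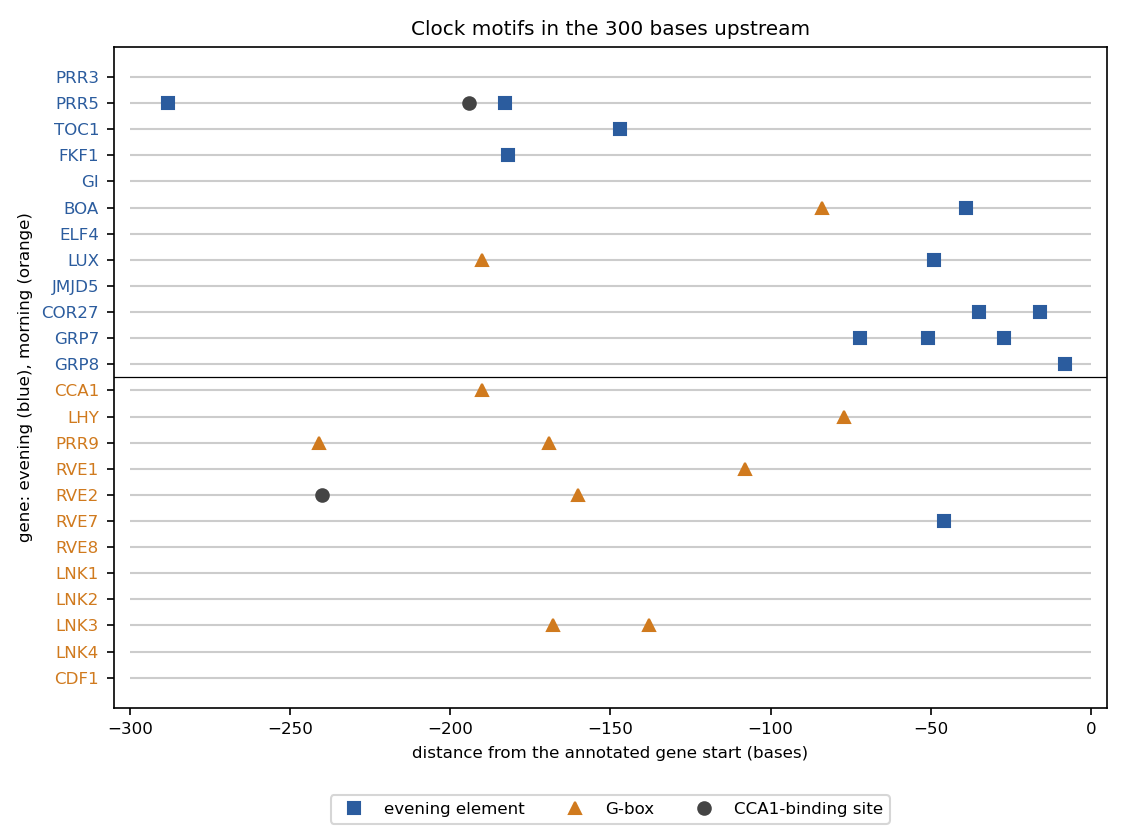
Position of the evening element, the G-box and the CCA1-binding site in the 300 bases upstream of the 12 evening and 12 morning members; the horizontal axis is the distance of the motif's centre from the annotated gene start in bases, and each symbol is 1 match on either strand. Evening elements fall on 8 evening members and on RVE7, and G-boxes fall on 6 morning members, LUX and BOA.

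The 40 genes spanned a wide range of levels. GRP7, which encodes a glycine-rich RNA-binding protein with daily rhythm, was the most abundant, with 78.0 to 362 TPM over the 30 libraries. ASG4, a REVEILLE-family MYB gene, was at or below 0.619 TPM in every library and passed the filter of 1 TPM in 3 libraries in no comparison. The genes that varied most between groups were the histone demethylase gene JMJD5, the blue-light receptor gene FKF1 and the cold-regulated gene COR27, whose highest group mean was 11.1, 9.37 and 8.84 times the lowest. The lowest group means of JMJD5 and COR27 were 0.384 and 0.406 TPM, under the filter of 1 TPM, so their ratios rest on values near the floor. ZTL, the close relative of FKF1 whose transcript is known to be nearly flat through the day, varied least, by 1.21 times.

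**Figure D2:**
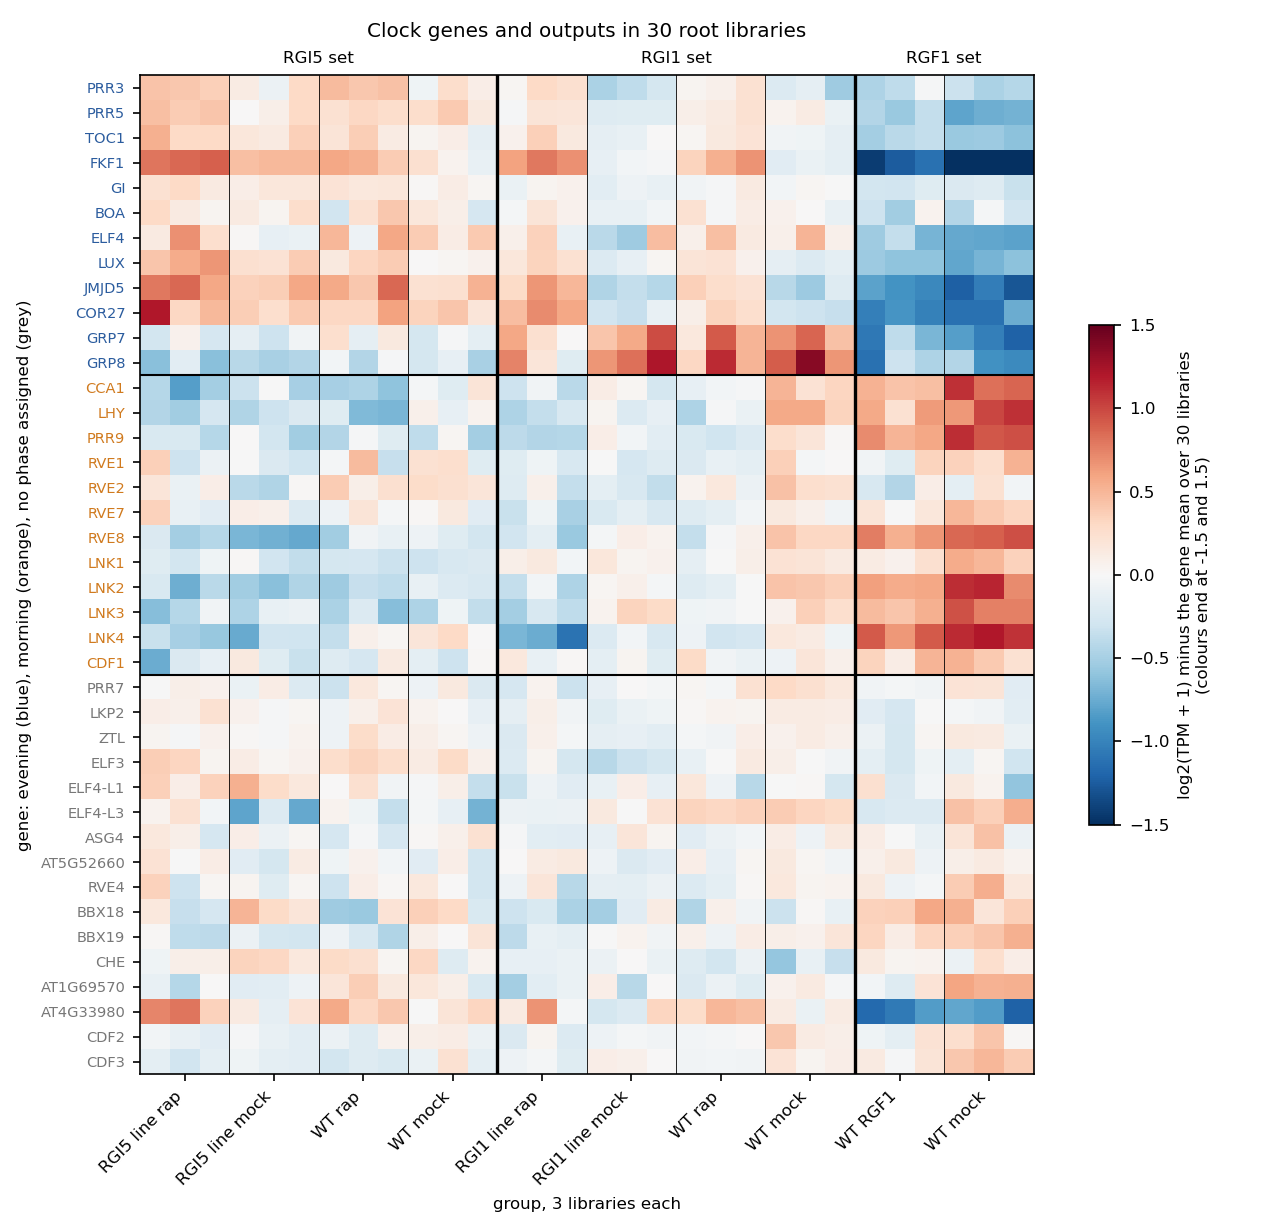
Level of the 40 genes in the 30 libraries as log2(TPM + 1) minus the gene's mean over all libraries; rows are genes with evening members in blue, morning members in orange and the rest in grey, and columns are libraries by set and group. Most evening members are lowest and most morning members highest in the 6 libraries of the RGF1 set, and GRP7 and GRP8 are highest in the RGI1 set.

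The 3 mock-treated wild-type groups differ in the labels by the set they belong to and by how the mock is named, and many clock genes were called between them. In mock-treated wild-type roots of the RGI5 and RGI1 sets, against those of the RGF1 set, 10 of 12 evening members were higher, and 10 and 8 of 12 morning members were lower. Of 39 members tested, 24 were called at an adjusted p under 0.05 in the RGI5 set against the RGF1 set, where 5.13% of all 20113 genes tested were called. In the RGI1 set against the RGF1 set, 23 of 39 members were called, where 14.5% of all genes were. These comparisons come from 1 fit of all 30 libraries, while each treatment was tested in a fit of its own set. With the treatments in the same fit of all 30 libraries, 8 members were called under rapamycin in the RGI1 line and 2 or fewer under each other treatment, and with the 2 mock groups of a comparison fitted alone, 17 were called for the RGI5 and 22 for the RGI1 set against the RGF1 set. The tests used limma on log2(TPM + 1) with Benjamini-Hochberg adjustment over all genes, and the fold changes below are on that scale, which understates changes of genes with few transcripts. Both comparisons share the mock-treated libraries of the RGF1 set. JMJD5 and COR27 stood under 1 TPM in those 3 libraries and passed the filter only through the other sets, so their calls add little to the counts. The labels name no hour of harvest and no batch, and none of these can be told apart from the set. The mock columns of the RGI5 and RGI1 sets are named after the solvent DMSO and those of the RGF1 set are not.

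By phase, 10 of the 12 evening members were higher and none lower in each of the RGI5 and RGI1 sets against the RGF1 set, with a median log2 difference of 0.80 and 0.73, against -0.023 and 0.032 over all genes. Over all genes 1.89% and 7.85% were called higher. In both sets the higher evening members include JMJD5 and COR27, which passed the filter only through sets other than the RGF1 set. Of the 12 morning members, 10 were lower in the RGI5 set and 8 in the RGI1 set, with medians of -0.92 and -0.49, where 3.23% and 6.63% of all genes were called lower. No morning member was called higher in either, but RVE2 had a log2 difference above 0 in both, 0.22 (limma adjusted p = 0.423) in the RGI5 set and 0.29 (adjusted p = 0.152) in the RGI1 set. Among the 8 evening members with an evening element, 6 were called higher in the RGI5 set and 7 in the RGI1 set, and among the 4 without one, 4 and 3 were. RVE7, the morning gene with an evening element, was lower in both, with a log2 difference of -0.40 in the RGI5 set (limma adjusted p = 0.0470) and -0.35 in the RGI1 set (adjusted p = 0.0492). Both calls of RVE7 were lost with any 1 library left out, at adjusted p-values of 0.0513 to 0.185. Of the 15 tested members given neither phase, 1 was called higher and 3 lower in the RGI5 set. In the RGI1 set 1 was called higher and 4 lower. ELF3, PRR7, RVE4 and AT5G52660, also given neither phase, were not called, so the counts by phase depend on how phases were assigned.

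FKF1 encodes an F-box protein that senses blue light and, with GI, removes the CDF repressors of flowering. It stood at 7.04, 6.08 and 5.27 TPM in mock-treated wild-type roots of the RGI5 set and at 5.02, 5.34 and 5.17 TPM in those of the RGI1 set, against 1.21, 1.41 and 1.00 TPM in those of the RGF1 set. No library of the first 2 groups came near the RGF1 set. The log2 difference was 1.69 ± 0.10 (SE, adjusted p = 3.65e-11 by limma, n = 3 each) for the RGI5 set and 1.49 ± 0.10 (adjusted p = 1.21e-09) for the RGI1 set. JMJD5, a clock-linked JmjC-domain gene, had 2.69, 2.71 and 3.49 TPM in the RGI5 set and 1.36, 1.16 and 1.74 TPM in the RGI1 set, against 0.339, 0.528 and 0.286 TPM in the RGF1 set. The 3 groups fell into separate ranges in that order. COR27 had 2.50, 2.70 and 2.17 TPM in the RGI5 set and 1.29, 1.24 and 1.20 TPM in the RGI1 set, against 0.279, 0.284 and 0.655 TPM in the RGF1 set, again with no overlap. JMJD5 and COR27 were under the filter of 1 TPM in the RGF1 set, so these ranges add little.

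Of the pseudo-response regulators, PRR5 and TOC1, which repress LHY and CCA1 in the afternoon and evening, were higher in both sets than in the RGF1 set. PRR5 had 17.3, 19.2 and 16.01 TPM in the RGI5 set and 14.9, 15.7 and 13.3 TPM in the RGI1 set, against 7.86, 8.25 and 8.36 TPM in the RGF1 set. The log2 difference of PRR5 was 1.01 (limma adjusted p = 1.03e-08) for the RGI5 set and 0.77 (adjusted p = 9.57e-07) for the RGI1 set. TOC1 differed by 0.57 (adjusted p = 0.000160, limma) and 0.48 (adjusted p = 0.000491). PRR9, the family member that comes on in the morning, went the other way. It had 5.09, 7.13 and 4.60 TPM in the RGI5 set and 8.59, 8.06 and 7.03 TPM in the RGI1 set, against 16.2, 14.2 and 14.6 TPM in the RGF1 set. Every library of the RGF1 set was above every library of the other sets. PRR7, which peaks around midday and was given no phase here, was not called in either, with log2 differences of -0.12 and 0.16. PRR3, which protects TOC1 from breakdown, was higher in the RGI5 set by 0.51 (adjusted p = 0.0124, limma), and differed by 0.11 (adjusted p = 0.570) in the RGI1 set. That call of PRR3 was lost without RGF1-set mock replicate 2 or RGI5-set mock replicate 3, at adjusted p-values of 0.0624 to 0.0907.

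Of the evening complex, LUX and ELF4 were higher and ELF3 was not called in either set. LUX, the DNA-binding subunit, had 29.1, 29.7 and 30.4 TPM in the RGI5 set and 26.4, 25.2 and 26.1 TPM in the RGI1 set, against 16.5, 17.5 and 18.6 TPM in the RGF1 set, in 3 ranges that did not overlap. ELF4, which encodes a small protein of the complex, differed by 1.07 (adjusted p = 0.00251, limma) in the RGI5 set and 1.00 (adjusted p = 0.00234) in the RGI1 set. ELF4-L3, a small relative of ELF4, was lower in the RGI5 set, with 6.90, 6.41 and 3.95 TPM against 9.996, 9.32 and 10.8 TPM in the RGF1 set, a log2 difference of -0.74 (adjusted p = 0.00221, limma) that missed the threshold with the 2 groups fitted alone (adjusted p = 0.104). In the RGI1 set it had 9.52, 9.13 and 8.90 TPM and was not called (log2 difference -0.11). BOA, a close relative of LUX, differed by 0.25 and 0.23 and was not called. GI, which works with the F-box receptors, was higher by 0.30 and 0.24 (adjusted p = 0.00160 and 0.00457, limma).

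Most of the dawn genes and their partners were lower. CCA1 averaged 1.79 ± 0.367 TPM in the RGI5 set and 2.56 ± 0.364 TPM in the RGI1 set, against 4.31 ± 0.542 TPM in the RGF1 set (SD, n = 3 each). It was lower in both, with log2 differences of -0.93 (adjusted p = 0.000198, limma) and -0.58 (adjusted p = 0.00687). LHY was lower in the RGI5 set, with a log2 difference of -0.91 (adjusted p = 0.000501, limma), and its -0.42 in the RGI1 set missed the threshold (adjusted p = 0.0584). All 4 LNK genes, coactivators that bind RVE8, were lower in both sets, LNK1 losing its call in the RGI1 set without any 1 of 4 libraries (adjusted p = 0.0614 to 0.0846, limma). LNK4 had 12.2, 13.3 and 10.7 TPM in the RGI5 set and 11.99, 11.7 and 10.2 TPM in the RGI1 set, against 24.2, 25.7 and 23.7 TPM in the RGF1 set. LNK3 had 2.99, 4.27 and 3.26 TPM in the RGI5 set and 4.78, 6.05 and 5.55 TPM in the RGI1 set, against 9.70, 8.30 and 8.32 TPM in the RGF1 set, with log2 differences of -1.12 and -0.60. LNK2 had 8.31, 7.75 and 7.50 TPM in the RGI5 set and 12.6, 12.3 and 11.9 TPM in the RGI1 set, against 20.6, 21.3 and 15.4 TPM in the RGF1 set. RVE8 itself had 4.28, 3.92 and 3.62 TPM in the RGI5 set and 6.54, 5.93 and 5.91 TPM in the RGI1 set, against 9.19, 9.43 and 9.89 TPM in the RGF1 set. In LNK2 and RVE8 the 3 sets formed 3 separate ranges, lowest in the RGI5 set, and LNK4 overlapped only between the RGI5 and RGI1 sets. Of the other REVEILLE genes, RVE1, RVE2, RVE4 and AT5G52660, a MYB-type gene, were called in neither set.

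Of the outputs, AT4G33980 was higher by 1.11 (adjusted p = 0.000323, limma) in the RGI5 set and 0.99 (adjusted p = 0.000513) in the RGI1 set. It is the 1 member called higher in each set among those given neither phase here, and its own daily phase was not assessed. CDF3 and the Dof-type zinc finger gene AT1G69570, of the family whose members repress CONSTANS, were lower in both sets, with log2 differences of -0.44 and -0.54 in the RGI5 set and of -0.31 and -0.49 in the RGI1 set. AT1G69570 lost its call with any 1 library left out but RGI5-set mock replicate 2, at adjusted p-values of 0.0523 to 0.135, and CDF3 in the RGI1 set without RGI1-set mock replicate 2 (0.0560). CDF1 was lower in the RGI5 set, with a log2 difference of -0.53 (adjusted p = 0.0491, limma), and lost its call without any 1 of 5 libraries (adjusted p = 0.0516 to 0.198). In the RGI1 set CHE, a TCP factor that represses CCA1, and the B-box gene BBX19 were lower, with -0.43 and -0.32, and lost their calls without any 1 of 2 and of 5 libraries (limma adjusted p = 0.0549 to 0.160). Among the 14 green-shoot markers, RCA and LHCB2.1 were also lower in both sets, where 3.23% and 6.63% of all genes were called lower in the RGI5 and RGI1 sets. LHCB2.1 is a weak marker here, with a mean of 1.86 TPM and 0.223 TPM in its lowest library. The summed shoot markers were 121 to 161 TPM in mock-treated wild-type roots of the RGI5 set and 107 to 125 TPM in those of the RGI1 set, against 143 to 170 TPM in those of the RGF1 set. The sums of the RGI5 and RGF1 sets overlapped, and the part of the shoot markers in the clock differences was not tested.

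**Figure D3:**
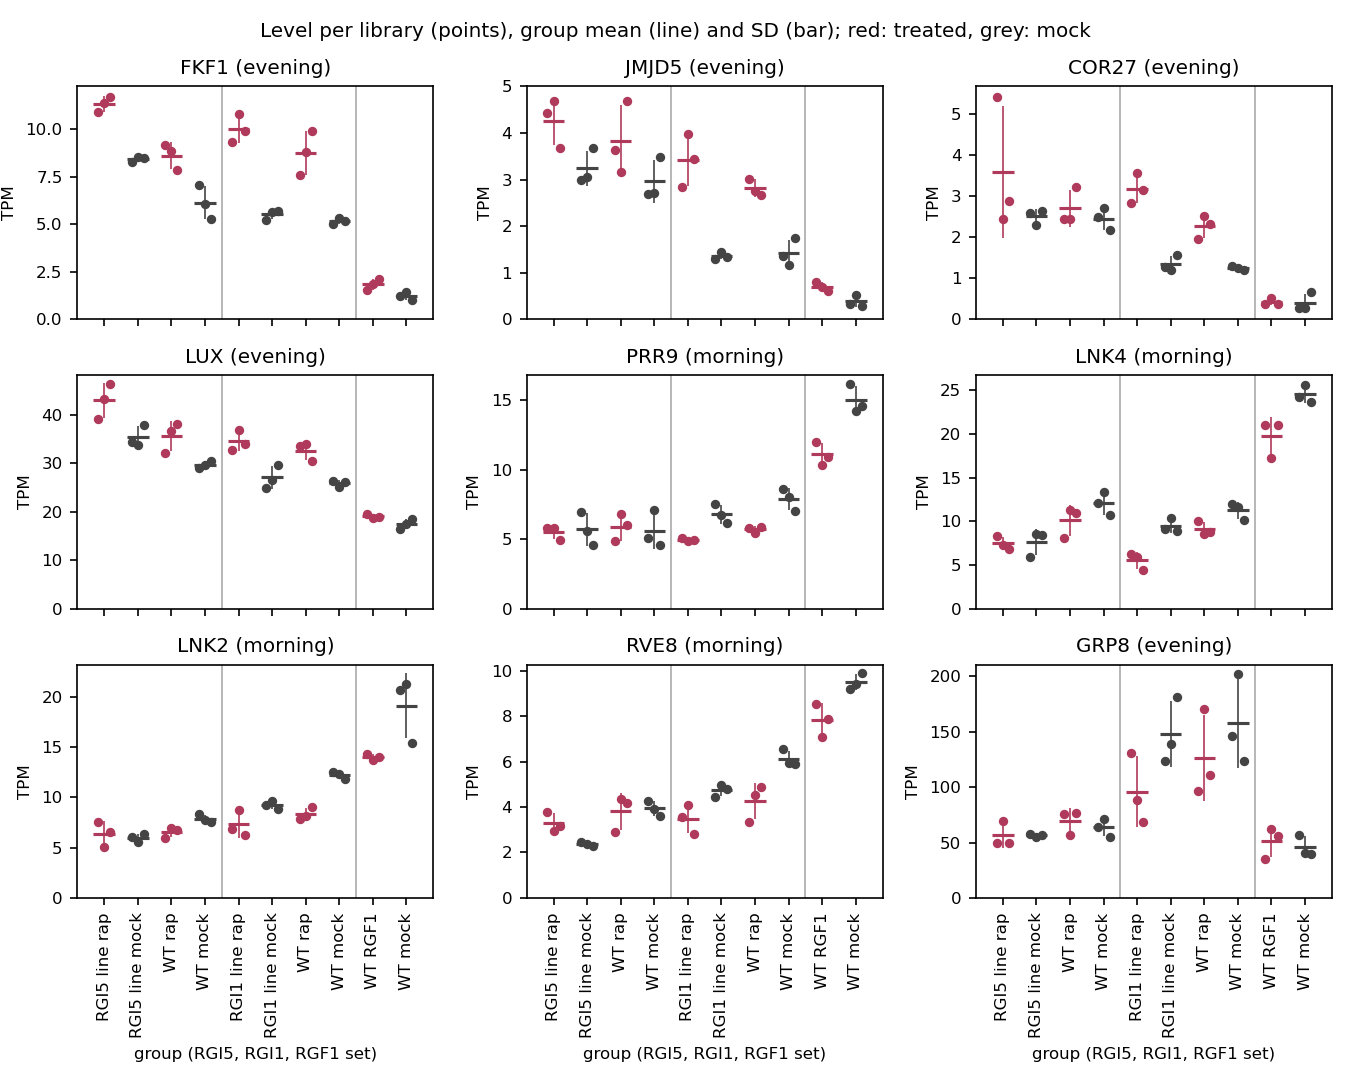
TPM of 9 clock genes in each library (points) with the group mean (line) and SD (bar); groups run from the RGI5 set through the RGI1 set to the RGF1 set, treated in red and mock in grey. FKF1, JMJD5, COR27 and LUX are lowest, and PRR9, LNK4, LNK2 and RVE8 highest, in the RGF1 set, while GRP8 is highest in the RGI1 set.

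The RGI5 and RGI1 sets also differed from each other. In mock-treated wild-type roots 14 of 39 members were called, 5 higher and 9 lower in the RGI5 set than in the RGI1 set, where 17.9% of all genes were called, 6.37% higher and 11.5% lower. JMJD5 was higher in the RGI5 set by 0.71 (limma adjusted p = 0.000481) and COR27 by 0.62 (adjusted p = 0.00877). PRR3, PRR5 and CHE were the other higher members, by 0.40, 0.24 and 0.41. Of the morning members 6 were lower, namely LNK1, LNK2, LNK3, RVE8, LHY and PRR9, with log2 differences between -0.58 for LNK2 and -0.44 for LNK1. ELF4-L3 was lower too, with a log2 difference of -0.62 (adjusted p = 0.00385, limma), 6.90, 6.41 and 3.95 TPM in the RGI5 set and 9.52, 9.13 and 8.90 TPM in the RGI1 set, and kept its call in all 14 alternatives. The other 2 lower members were GRP7 and GRP8. In the RGI5 set against the RGI1 set the call of CHE was lost without RGI1-set mock replicate 1 or RGI5-set mock replicate 2 (limma adjusted p = 0.102 and 0.0940). LNK3 lost its call without RGI1-set mock replicate 2 or RGI5-set mock replicate 2 (0.0534 to 0.0612), and LHY without RGI1-set mock replicate 1 or 2 or RGI5-set mock replicate 3 (0.0869 to 0.0933). PRR3, PRR5 and PRR9 each lost it without any of 3 or 4 libraries, at adjusted p-values of 0.0593 to 0.157.

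GRP7 and GRP8, paralogs that encode RNA-binding outputs of the clock, stood highest in the RGI1 set. GRP8 had 64.5, 71.4 and 55.4 TPM in mock-treated wild-type roots of the RGI5 set and 146, 202 and 124 TPM in those of the RGI1 set, against 57.01, 41.004 and 39.6 TPM in those of the RGF1 set. The RGI1 set stood alone, while the RGI5 and RGF1 sets overlapped. GRP7 had 152, 180.3 and 165 TPM in the RGI5 set and 293, 335 and 248 TPM in the RGI1 set, against 103, 89.6 and 78.02 TPM in the RGF1 set, in 3 separate ranges. In the RGI5 set against the RGI1 set GRP8 was lower, with a log2 difference of -1.27 ± 0.24 (SE, adjusted p = 0.000901, limma, n = 3 each) and so was GRP7, with -0.81 ± 0.19 (adjusted p = 0.00474). GRP8 in the RGI5 set against the RGF1 set was not called (log2 difference 0.48, adjusted p = 0.287, limma). The transcript models of GRP8 differed as well. Its second model made up 17.6 to 37.2% of GRP8 in all 12 libraries of the RGI1 set. In the other 18 libraries it made up 0 to 13.8%, except for 33.8% in mock-treated wild-type replicate 4 of the RGI5 set. These shares are estimates that split reads between models, and reads may also be split between the paralogs.

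In the RGI1 line given 1 µM rapamycin, 6 evening genes rose and 3 morning genes fell. In that line 9 of 39 members were called against mock, where 4.05% of 19634 genes were called. All 6 that rose are evening members, out of 12, and all 3 that fell are morning members, out of 12; over all genes 2.56% were called higher and 1.49% lower. The median log2 fold change was 0.29 for the evening and -0.23 for the morning members, against 0.029 over all genes.

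JMJD5 had 2.84, 3.98 and 3.45 TPM with rapamycin, against 1.305, 1.44 and 1.33 TPM in mock-treated plants of the line. COR27 had 2.84, 3.55 and 3.15 TPM with rapamycin, against 1.27, 1.19 and 1.57 TPM in mock. FKF1 had 9.29, 10.8 and 9.90 TPM with rapamycin, against 5.24, 5.63 and 5.69 TPM in mock. In all 3 genes every treated library stood above every mock library. The log2 fold changes were 0.90 ± 0.12, 0.83 ± 0.11 and 0.75 ± 0.086 for JMJD5, COR27 and FKF1 (SE, n = 3 each), with limma adjusted p-values of 0.00100, 0.000858 and 0.000485. PRR3, LUX and PRR5 rose by 0.56, 0.34 and 0.31 (adjusted p = 0.0153, 0.0141 and 0.0353, limma). TOC1, which PRR5 resembles in sequence and function, changed by 0.27 and missed the threshold (adjusted p = 0.0679).

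LNK4 had 6.26, 5.95 and 4.42 TPM with rapamycin, against 9.11, 10.3 and 8.88 TPM in mock-treated plants of the line. LNK3 had 2.86, 3.67 and 3.24 TPM with rapamycin, against 4.72, 5.96 and 5.74 TPM in mock. PRR9 had 5.05, 4.86 and 4.92 TPM with rapamycin, against 7.50, 6.71 and 6.13 TPM in mock. Every treated library of these 3 genes was below every mock library, and they fell by 0.68, 0.60 and 0.39 on the log2 scale (limma adjusted p = 0.00420, 0.00565 and 0.0216). LHY and CCA1 changed by -0.26 and -0.21 and were not called. GRP7 and GRP8, evening members too, had log2 fold changes below 0, at -0.38 and -0.66, which did not pass (adjusted p = 0.394 and 0.225, limma). FKF1, JMJD5, COR27, LNK3 and LNK4 kept their call with any 1 library left out. The count fell to 5 without line mock replicate 1 or without line mock replicate 3, and PRR3, PRR5, PRR9 and LUX were the calls that were lost. LUX, PRR3 and PRR9 were also lost without line rapamycin replicate 2, PRR3 and PRR9 without line rapamycin replicate 3, and PRR5 without any library but line rapamycin replicate 1, at adjusted p-values of 0.0546 to 0.123 over all these cases.

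The wild type given the same 1 µM rapamycin lacks the engineered proteins. There 0 of 39 members passed, as did 0 of 19634 genes in all by limma, while 6.57% of all genes had an unadjusted p under 0.05. At that unadjusted level 18 of 39 members passed: 6 evening members higher and 12 members lower, 10 of them morning members, where 2.66% of all genes passed higher and 3.91% lower. All 12 morning members had a fold change below 0, with a median of -0.27, and 9 of 12 evening members one above 0, with a median of 0.17, against -0.014 over all genes. Over all genes 56.8% had a fold change below 0.

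FKF1 had 7.56, 8.81 and 9.88 TPM in rapamycin-treated wild-type roots, against 5.02, 5.34 and 5.17 TPM in mock. JMJD5 had 3.02, 2.76 and 2.66 TPM with rapamycin, against 1.36, 1.16 and 1.74 TPM in mock. LHY had 1.28, 2.09 and 1.93 TPM with rapamycin, against 3.67, 3.66 and 2.96 TPM in mock. The treated and mock libraries did not overlap in any of the 3 genes. The log2 fold changes were 0.65, 0.66 and -0.69 for FKF1, JMJD5 and LHY, with limma adjusted p-values of 0.113, 0.312 and 0.312. LNK2 had 7.82, 8.10 and 9.02 TPM with rapamycin, against 12.6, 12.3 and 11.9 TPM in mock, a fold change of -0.51 (limma adjusted p = 0.312). FKF1 passed in 4 of 14 alternative treatments of the data, with an adjusted p of 0.0117 at the lowest, 1 of them being the fit without wild-type rapamycin replicate 1 (adjusted p = 0.0252).

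The response of the line minus that of its wild type was tested directly. By limma 0 of 39 members passed, where 1.25% of all genes did, and 6 members had an unadjusted p under 0.05, as did 11.8% of all genes. LNK4 came first, with a difference in response of -0.41 (95% interval -0.74 to -0.07, adjusted p = 0.316). AT5G52660 followed with 0.28 (0.04 to 0.52, adjusted p = 0.331) and RVE2 with 0.36 (0.03 to 0.69, adjusted p = 0.366). For FKF1 the difference was 0.10 (-0.17 to 0.37), for JMJD5 0.23 (-0.12 to 0.59), for COR27 0.30 (-0.03 to 0.62) and for PRR9 0.02 (-0.24 to 0.27). LHY, whose fold change was -0.26 in the line and -0.69 in wild type, differed by 0.43 (0.03 to 0.83, adjusted p = 0.381). A p that misses the threshold does not show that line and wild type responded alike.

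**Figure D4:**
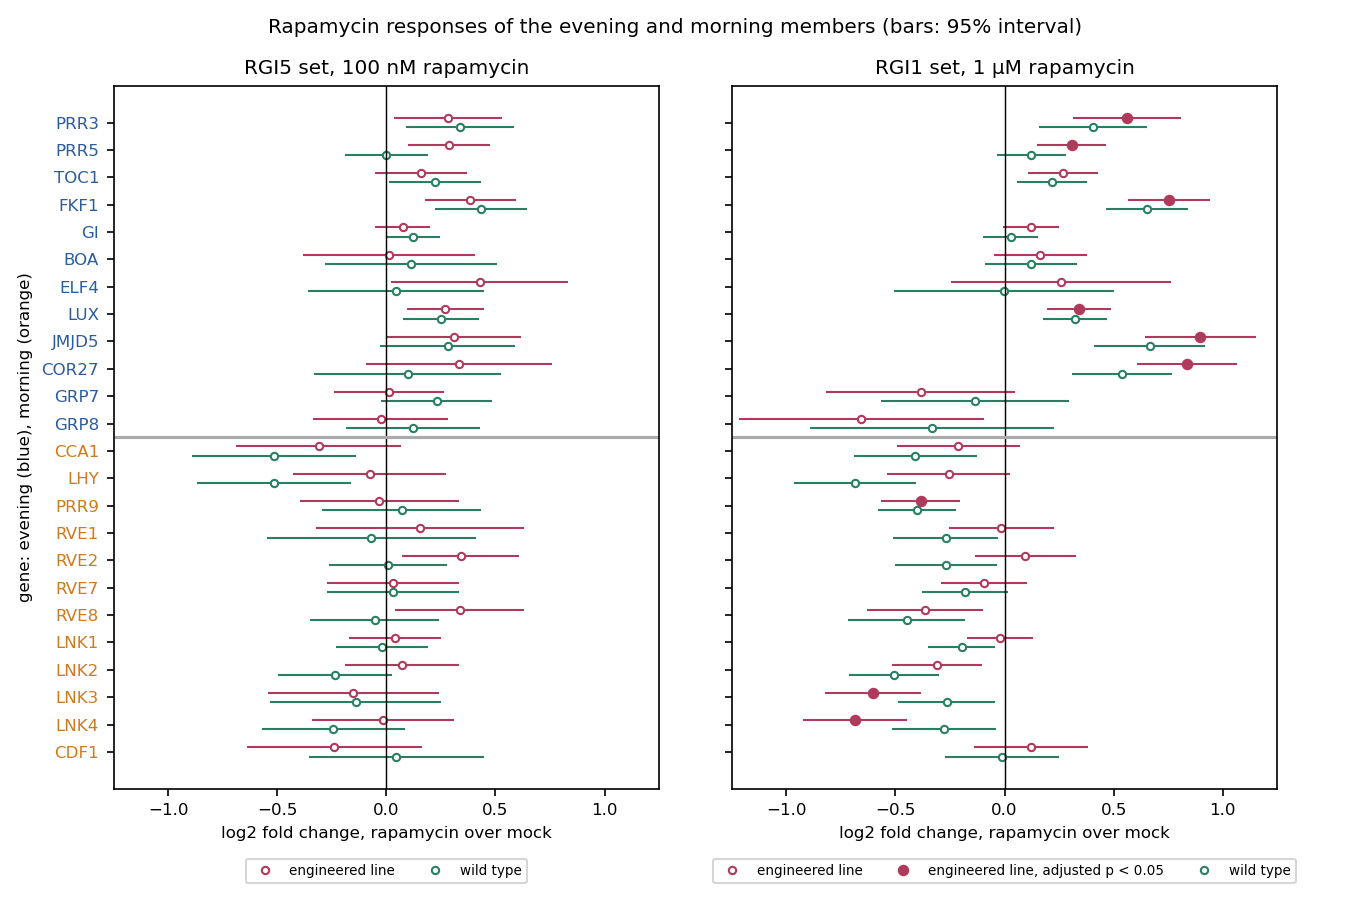
Log2 fold change of TPM + 1, rapamycin over mock, with its 95% interval for the 12 evening and 12 morning members in the engineered lines (red) and in wild type (green), at 100 nM in the RGI5 set (left) and 1 µM in the RGI1 set (right); filled points passed at an adjusted p under 0.05. Filled points occur in the RGI1 line, 6 evening members right of 0 and 3 morning members left of it.

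At 100 nM rapamycin, in the RGI5 set, 0 of 39 members passed in the line or in wild type. Over all 19652 genes 0 were called in the line, with 11.1% at an unadjusted p under 0.05, and 0.00509% were called in wild type, with 7.54% at that level. In the RGI5 line 10 members had an unadjusted p under 0.05, all with higher values under rapamycin, 6 of them evening members, where 9.42% of all genes did so. In wild type 8 members did, 4 evening members higher and 4 members lower, where 3.26% of all genes were higher and 4.28% lower. The median log2 fold change of the evening members was 0.28 in the line, against 0.064 over all genes, and 0.17 in wild type, against -0.0046 over all genes. The morning members had a median of 0.0068 in the line, with 6 above 0 and 6 below. In wild type their median was -0.060, with 4 above 0 and 8 below. At an unadjusted p under 0.05, 2 morning members were higher and 0 lower in the line, and 0 were higher and 2 lower in wild type.

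FKF1 had 10.9, 11.4 and 11.7 TPM in the RGI5 line with rapamycin, against 8.28, 8.52 and 8.49 TPM in mock. In wild type it had 9.15, 8.84 and 7.82 TPM with rapamycin, against 7.04, 6.08 and 5.27 TPM in mock. Treated libraries were above mock libraries in both genotypes without overlap, by 0.39 in the line (limma adjusted p = 0.252) and 0.43 in wild type (adjusted p = 0.290), and neither passed. LUX had log2 fold changes of 0.27 and 0.25 in line and wild type. LHY and CCA1 had values of -0.52 and -0.52 in wild type and -0.08 and -0.31 in the line, none of which passed. ELF4-L3 had 7.41, 8.44 and 6.86 TPM in the line with rapamycin, against 3.68, 5.99 and 3.76 TPM in mock. Its groups did not overlap and its fold change of 0.67 had a limma adjusted p of 0.294, and 0.0368 when all 30 libraries shared 1 fit. AT4G33980 had 6.98, 7.41 and 5.14 TPM in the line with rapamycin, against 4.30, 3.39 and 4.56 TPM in mock, a fold change of 0.56 that did not pass (adjusted p = 0.265, limma).

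The response of the RGI5 line minus that of its wild type passed for 0 of 39 members, as for 0 of all 19652 genes by limma, with 10.8% of genes and 1 member at an unadjusted p under 0.05. That member was PRR5, with a difference of 0.29 (0.02 to 0.55, adjusted p = 0.430). RVE8 differed by 0.39 (-0.03 to 0.81) and CHE by -0.36 (-0.72 to 0.01). FKF1 differed by -0.05 (-0.35 to 0.25) and LUX by 0.02 (-0.23 to 0.27). Dose and set differ together between the RGI5 and RGI1 sets, so their responses are given side by side and were not compared.

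In wild-type roots given RGF1 peptide, ELF4-L3 fell and was the 1 member called of 37 tested, where 0.140% of 19274 genes were called. It had 5.83, 5.99 and 6.01 TPM with RGF1, against 9.996, 9.32 and 10.8 TPM in mock, with no overlap. The log2 fold change was -0.67 ± 0.092 (SE, n = 3 each, limma adjusted p = 0.0386). The call was lost with any 1 of the 6 libraries left out, at adjusted p-values of 0.0649 to 0.223. Its lowest group mean in any set, 4.48 TPM, was that of mock-treated plants of the RGI5 line.

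In the RGF1 set the morning members lay below 0. All 12 had a fold change below 0 with RGF1, as did 65.8% of all genes, with a median of -0.34 against -0.049 over all genes. Of the 12, 9 had an unadjusted p under 0.05, where 7.87% of all genes were lower at that level. In 9 of the 12 no treated library reached the mock libraries, as in 12.3% of all genes. PRR9 had 12.02, 10.4 and 10.9 TPM with RGF1, against 16.2, 14.2 and 14.6 TPM in mock. CCA1 had 3.01, 2.74 and 2.79 TPM with RGF1, against 4.93, 3.92 and 4.08 TPM in mock. Neither gene overlapped between the groups, and neither passed (log2 fold change -0.40 and -0.46, adjusted p = 0.175 and 0.259, limma). AT1G69570, the Dof-type gene, had 1.44, 1.21 and 1.91 TPM with RGF1, against 2.79, 2.61 and 2.65 TPM in mock, with a fold change of -0.56 (adjusted p = 0.259, limma). Of the 10 evening members tested 8 had a fold change above 0, with a median of 0.14. JMJD5, COR27 and ASG4 did not pass the filter in this set. JMJD5 stood at 0.800, 0.685 and 0.610 TPM with RGF1, against 0.339, 0.528 and 0.286 TPM in mock, all under 1 TPM but without overlap.

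The engineered lines were also set against their wild types. In mock-treated roots of the RGI1 line 7 of 39 members were lower and none higher, but 14.5% of all genes were lower there and 2.00% higher, so the share of members is near the background. RVE2 kept its call in all 14 alternatives, and LHY in the 13 in which it was tested. The highest limma adjusted p of LHY was 0.0484, without line mock replicate 3. RVE2, a MYB factor of the REVEILLE family, had 16.5, 15.3 and 13.96 TPM in the RGI1 line, against 25.2, 22.1 and 21.5 TPM in wild type. LHY had 2.23, 1.73 and 1.87 TPM in the RGI1 line, against 3.67, 3.66 and 2.96 TPM in wild type. Neither overlapped, and the log2 differences were -0.56 and -0.59 (limma adjusted p = 0.00521 and 0.0108). LNK2, ELF3, LKP2, ZTL and ELF4-L3 were lower, with log2 differences of -0.37, -0.34, -0.23, -0.23 and -0.21, and each lost its call with some library left out. ZTL was lost without any 1 of the 6 libraries (adjusted p = 0.0838 to 0.142, limma), LKP2 and ELF4-L3 without any 1 but line mock replicate 4 (0.0571 to 0.168), and ELF3 and LNK2 without any 1 of 4 libraries (0.0547 to 0.0778). The count of members fell to 2 without wild-type mock replicate 1 or line mock replicate 1, and to 3 without wild-type mock replicate 2 or line mock replicate 3. The green-shoot markers summed to 157 to 183 TPM in mock-treated roots of the RGI1 line and 107 to 125 TPM in its wild type. Of the markers that passed the filter 6 were called higher, and some, such as RBCS1B and RBCS2B, did not pass it. The part of the shoot markers in these differences was not tested.

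With rapamycin, 2 of 39 members were lower in the RGI1 line than in wild type, where 8.05% of all genes were called, 6.15% lower, so the share of members is near the background. The green-shoot markers summed to 131 to 199 TPM in rapamycin-treated roots of the RGI1 line and 116 to 125 TPM in those of its wild type, with 3 of 11 tested called higher, and their part in these differences was not tested. LNK4 was lower, with a log2 difference of -0.64 (adjusted p = 0.00371, limma), with 6.26, 5.95 and 4.42 TPM in the line, against 10.04, 8.57 and 8.73 TPM in wild type. ELF4-L3 was lower, with -0.43 (adjusted p = 0.00154), with 6.62, 6.52 and 6.58 TPM in the line, against 9.21, 9.03 and 9.31 TPM in wild type. Neither gene overlapped between the genotypes. ELF4-L3 missed the threshold when all 30 libraries shared 1 fit (adjusted p = 0.0865), and the count of 2 became 6 without line rapamycin replicate 2. COR27 was next, with a log2 difference of 0.36 that missed the threshold (adjusted p = 0.0594, limma).

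In the RGI5 line against its wild type, 0 of 39 members passed in mock, where 0.438% of all genes were called and 13.9% had an unadjusted p under 0.05, as 9 members did. FKF1 had 8.28, 8.52 and 8.49 TPM in mock-treated plants of the line, against 7.04, 6.08 and 5.27 TPM in wild type. RVE8 had 2.48, 2.39 and 2.29 TPM in the line, against 4.28, 3.92 and 3.62 TPM in wild type. The genotypes did not overlap in either gene, with log2 differences of 0.41 and -0.54 (limma adjusted p = 0.0952 and 0.114). RVE2 and LNK4 had log2 differences of -0.51 and -0.61 (adjusted p = 0.105 and 0.109, limma). With rapamycin 0 of 39 passed as well, where 0.112% of all genes were called and 14.0% had an unadjusted p under 0.05, as 4 members did. FKF1, LUX and AT1G69570 had the lowest p among them, with log2 differences of 0.36, 0.26 and -0.41 (limma adjusted p = 0.144, 0.180 and 0.273).

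The mean log2(TPM + 1) of the 12 evening members minus that of the 12 morning members puts the 30 libraries on 1 scale. In the RGI5 line it was 1.35 to 1.62 with rapamycin, against 1.17 to 1.38 in mock, and in its wild type 1.15 to 1.43 with rapamycin, against 0.983 to 0.996 in mock. In the RGI1 line it was 1.36 to 1.42 with rapamycin, against 0.731 to 1.07 in mock, and in its wild type 1.13 to 1.26 with rapamycin, against 0.575 to 0.722 in mock. In the RGF1 set it was -0.293 to 0.0224 with RGF1, against -0.651 to -0.633 in mock. Treated libraries were above the mock libraries of the same genotype and set without overlap in 4 of the 5 cases, the exception being the RGI5 line. The difference of group means was 0.52 in the RGI1 line, 0.54 in its wild type, 0.49 for RGF1, 0.20 in the RGI5 line and 0.32 in its wild type. Between mock-treated wild-type roots the difference was 1.63 for the RGI5 set against the RGF1 set, 1.28 for the RGI1 set against the RGF1 set and 0.35 for the RGI5 set against the RGI1 set. Mock-treated plants of the RGI1 and RGI5 lines were above their wild types by 0.22 and 0.27, without overlap. With rapamycin the RGI1 line was above its wild type by 0.19 without overlap, and the RGI5 line by 0.15 with overlap. No test was made on this summary. It weighs each gene alike and leaves out the members given neither phase.

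**Figure D5:**
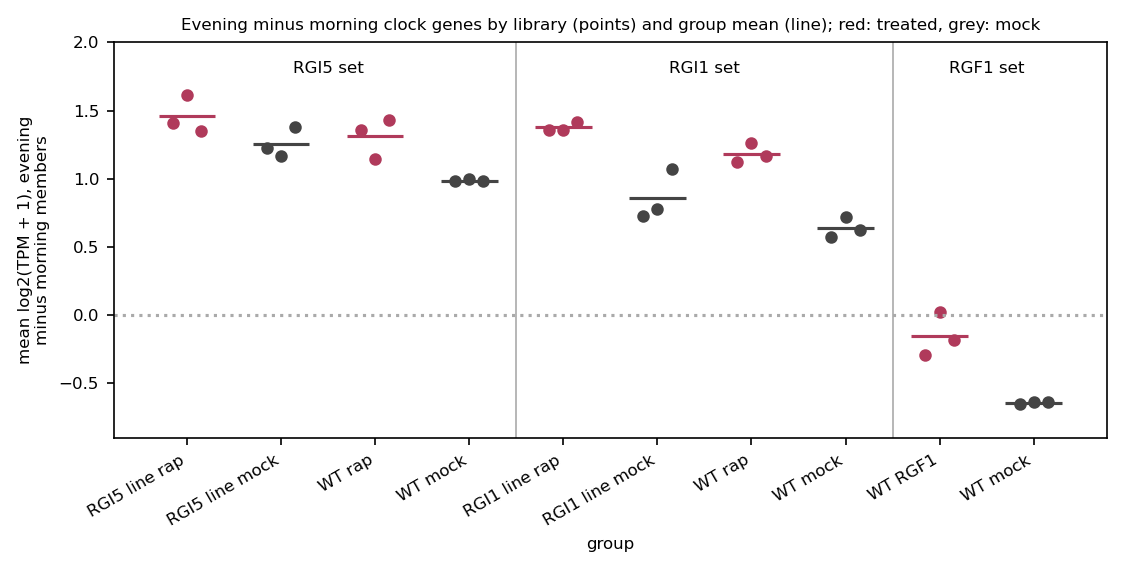
Mean log2(TPM + 1) of the 12 evening members minus that of the 12 morning members in each library (points) with the group mean (line); treated groups in red, mock in grey, sets from RGI5 through RGI1 to RGF1. Treated libraries lie above the mock libraries of the same genotype except for an overlap in the RGI5 line, and the RGF1 set lies below the others.

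A second list of 30 genes that act on the clock or its light input, among them phytochromes, cryptochromes and chromatin or RNA factors, held 0 to 5 calls in a comparison. Of these, 28 were tested, and 0 were called by limma under rapamycin in either line or wild type, or under RGF1, with 2 to 4 at an unadjusted p under 0.05 in each. Between the mock-treated wild-type groups 3 of 28 were called in the RGI5 set against the RGF1 set, where 5.13% of all genes were, 4 of 28 in the RGI1 set against the RGF1 set, where 14.5% were, and 5 of 28 in the RGI5 set against the RGI1 set, where 17.9% were. The B-box gene BBX25 was lower in both, with log2 differences of -1.01 and -1.21, at 4.69 TPM in the RGI5 set and 3.93 TPM in the RGI1 set, against 10.4 TPM in the RGF1 set. CAT3, a catalase gene whose transcript peaks in the evening, was higher in the RGI5 set than in the RGF1 set by 0.58 (adjusted p = 0.0254, limma), with 360 TPM against 240 TPM. CAT3 was also higher in the RGI5 set than in the RGI1 set, by 0.75 (adjusted p = 0.00153, limma). In mock-treated roots of the RGI1 line 5 of 28 were lower than in wild type, BBX24, DET1, CRY2, TIC and PHYA, where 14.5% of all genes were lower. With rapamycin 1 of 28 was lower in that line than in wild type, TCP22, with a log2 difference of -0.35 (adjusted p = 0.0112, limma).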

How the data were processed

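Per the labels' protocols, RNA was isolated with a plant RNeasy kit and libraries were made with a stranded TruSeq mRNA kit. The submitters' processing notes list Salmon and DESeq2, with neither version nor role. For the transcript index and its genome build, what was used is not given in the sources used here. The authors deposited 1 table of TPM per transcript model, with 40812 models and 30 columns, which keeps no depth, so no counting interval could be given. Columns whose names differ from the sample titles were matched by genotype, treatment and replicate number.

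TPM values were summed per locus to 32753 genes and tested as log2(TPM + 1) with limma 3.58.1 (mean-variance trend) in R 4.3.3. Each set was fitted on its own, and the mock-treated wild types of different sets were compared in a fit of all 30 libraries. Genes at 1 TPM or more in 3 libraries of a fit were kept, and adjusted p-values are Benjamini-Hochberg over all genes kept, with a threshold of 0.05. The fit was tested on simulated data. The members and lists were chosen with earlier results of these data known. The text names, with values, up to 12 called members per comparison by size of fold change, or the 3 with the lowest p where fewer were called, and others by role. Motifs were searched in the RefSeq TAIR10.1 genome, which was used for sequence and names only. Alternatives were other scaling, filters and pseudocounts, a replicate block, 1 fit of all libraries or of 2 groups, and leaving out each library.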

Additional observations from a re-analysis of the deposited data

How the results depend on the processing

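Depth is unknown, harvest time and batch cannot be told apart from the set, and 3 libraries a group limit what a test can pass. Of 1456 values of named or called members under the alternatives, 1276 kept their direction and their side of the threshold, 165 lost the call, 15 gained one and 0 reversed. Counts of called members changed as follows. With quantile normalization they were 0 for RGF1 peptide (1 in the report), 1 for rapamycin in the RGI1-set wild type (0), 3 for the RGI1 line against wild type in mock (7; 1 higher and 2 lower, against 0 higher and 7 lower) and 1 for the RGI5 line against wild type in mock (0). With median-ratio scaling they were 0, 1 and 3 for the first 3 of these. Quantile normalization moved the median of all genes for the RGI1 line against wild type in mock by 0.1 on the log2 scale, to near 0. With no filter on low values the RGF1 count was 0. With a filter of a mean of 5 TPM, which drops low members such as FKF1 or JMJD5 from some fits, it was 5 for rapamycin in the RGI1 line (9), 15 for the RGI1 set against the RGF1 set (23), 13 for the RGI5 set against the RGF1 set (24) and 8 for the RGI5 set against the RGI1 set (14). With all 30 libraries in 1 fit it was 2 for RGF1, 1 for rapamycin in the RGI1-set wild type, 4 and 1 for the RGI1 line against wild type in mock and with rapamycin (7 and 2), 1 for rapamycin in the RGI5 line (0), and 4 and 2 for the RGI5 line against wild type in mock and with rapamycin (0 and 0). Leaving out 1 library gave 0 for RGF1, 0 to 1 for rapamycin in the RGI1-set wild type, 5 to 10 for rapamycin in the RGI1 line, 2 to 6 for the RGI1 line against wild type both in mock and with rapamycin, 0 to 1 for the RGI5 line against wild type in mock, 18 to 21 for the RGI1 set against the RGF1 set, 20 to 22 for the RGI5 set against the RGF1 set and 10 to 13 for the RGI5 set against the RGI1 set. The single cases of 1 came without wild-type rapamycin replicate 1 of the RGI1 set and without line mock replicate 4 of the RGI5 set. Beyond what leaving genes or libraries out explains by itself, the cause was not tested.

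Deviations from the group means were weakly correlated between libraries of 1 number. The correlations ran from -0.07 to 0.05 in the RGF1 set, -0.04 to 0.07 in the RGI1 set and -0.06 to 0.12 in the RGI5 set. Their medians were -0.012, 0.028 and 0.027 in that order, against 0.0029, -0.017 and 0.013 for libraries of different numbers. With 2 such pairs in the RGF1 set and 13 in each other set, this does not exclude that the numbers pair the libraries. With a replicate block the count was 0 for RGF1 and 4 for the RGI1 line against wild type in mock, and within 1.5 times the count reported in every other comparison.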
